A study of Mus musculus with 6 samples.

Results

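Neuroendocrine genes were followed in thymic stroma, the supporting tissue of the thymus. They were 10 genes of the 22513 entries in the deposited expression table: the transcription factor genes Insm1 and Neurod1, the peptide genes Calca, Calcb and Npy, the granin genes Chga, Chgb, Scg2 and Scg5, and the processing enzyme gene Pcsk1. They were selected on these data as well as on function: Insm1 and Calcb had been seen among the largest rises with RANKL, and Npy is one of the genes that the study picked as lower without Jmjd6. The changes of the 10 genes with RANKL, and that of Npy between genotypes, are therefore given as a description with no test. All 10 genes had 1 entry each, and 8 of them passed a filter at a mean of 0.1 FPKM over the libraries; Neurod1 and Pcsk1 did not.

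The stroma came from thymic lobes of fetal C57BL/6 mice, cultured with 2-deoxyguanosine (2-DG), which removes most haematopoietic cells. All 6 libraries shared this treatment for 4 days. There was 1 library of unstimulated WT stroma, 1 of unstimulated Jmjd6-/- stroma, and 2 each of WT and Jmjd6-/- stroma stimulated for 4 days with RANKL at 1 µg/ml. RANKL is the cytokine that drives maturation and Aire expression of medullary thymic epithelial cells (mTECs), and Jmjd6 encodes a nuclear lysyl hydroxylase that embryos of the Jmjd6-/- line lack. Lobes hold epithelium, mesenchyme, vessels and remaining haematopoietic cells, and nothing was sorted. The epithelial genes Foxn1 and Epcam were read in every library, at 80.8 FPKM or more.

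Poly-A RNA was sequenced, and levels are in FPKM, fragments per kilobase of transcript scaled to the number mapped. The libraries held an estimated 15500000 to 30400000 fragments. Jmjd6 was at 26.3, 25.9 and 32.5 FPKM in the WT libraries and at 1.32, 1.96 and 1.78 FPKM in the Jmjd6-/- libraries. Aire was at 0.142 and 0.473 FPKM without RANKL and between 67.1 and 79.7 FPKM with it, so both labels held. The labels call the 2 RANKL libraries of a genotype technical duplicates, while the study calls them samples. Ddx3y, a gene of the Y chromosome, was at 23.9 and 5.41 FPKM in the Jmjd6-/- RANKL libraries, at 17.3 and 11.8 FPKM in the WT ones, and, without RANKL, at 29.1 FPKM in WT and 0.0237 FPKM in Jmjd6-/- stroma. The libraries thus held different shares of RNA from male embryos, and the part of this in the results was not tested. The spread between 2 libraries of a group may still leave out part of the variation between embryos.

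Neuroendocrine cells store peptides in dense-core granules and release them on a signal. Granins help to form the granules, prohormone convertases cut the peptide precursors inside them, and transcription factors such as INSM1 and NEUROD1 set up the programme in endocrine and nerve cells. In the thymus, mature mTECs transcribe many genes of other tissues, hormones among them, through AIRE and by other routes, and some medullary cells take on features of other cell types, neuroendocrine cells included. The parathyroid, whose cells carry chromogranin A, develops beside the thymus and can leave cells in it.

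Promoter sequence was available for 8 of the 10 genes, from RefSeq on GRCm38.p6; Insm1 and Calcb were not matched. In the 300 bases around each start site (250 before it and 50 after it), the cAMP response element TGACGTCA, the binding motif of CREB-type factors, was found in the promoters of Scg2, Chgb and Pcsk1. These are 3 of 8 promoters, against 1.79% of 32851 mouse promoters of the same length. Its core TGACG, searched on both strands and contained in each octamer, was found in 6 of 8, against 20.8% of all. The 60 bases from 90 to 31 before the start site are shown for the 3 genes with the octamer and for Chga and Calca, which hold the core alone in this window. Capitals mark the octamer or the core, on the strand of the gene.
Scg2, chr1:79440057-79440116, minus strand: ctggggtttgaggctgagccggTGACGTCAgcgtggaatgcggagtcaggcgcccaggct
Chgb, chr2:132781552-132781611, plus strand: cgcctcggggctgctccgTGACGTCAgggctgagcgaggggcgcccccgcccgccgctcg
Pcsk1, chr13:75089767-75089826, plus strand: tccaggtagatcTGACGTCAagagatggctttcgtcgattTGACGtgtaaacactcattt
Chga, chr12:102554851-102554910, plus strand: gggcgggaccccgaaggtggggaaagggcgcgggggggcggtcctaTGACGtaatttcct
Calca, chr7:114636388-114636447, minus strand: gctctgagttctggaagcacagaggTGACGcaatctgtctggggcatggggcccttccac
The octamer lay 68 to 78 bases before the RefSeq start sites of the 3 genes, whose spans in the deposited values start at other positions. The E-box CAGATG, a motif bound by NEUROD1-type factors, and GGNNTTTCC, a motif of NF-κB, the factor downstream of RANK, were in 0 of the 8 windows, against 17.2% and 5.82% of all promoters. The TATA motif TATAAA was in 1 of 8, against 13.6%. A match marks letters in a window, not a bound site, and of the genes with the octamer Scg2 reached 3.12 FPKM with RANKL, whereas Chgb and Pcsk1 stayed below 0.5 FPKM in every library.

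Insm1 encodes a zinc-finger repressor that is a general marker of neuroendocrine differentiation. It is a gene of 1 exon on chromosome 2 (146221997 to 146225018, plus strand, mm10). Without RANKL its level was 0.315 FPKM in WT and 0 in Jmjd6-/- stroma. RANKL-stimulated WT libraries held 39.7 and 30.7 FPKM and the Jmjd6-/- ones 31.7 and 31.0 FPKM. Both genotypes were thus far above their unstimulated library, and the genotypes overlapped. In WT the mean with RANKL was 112 times the unstimulated level (95% counting interval 80.6 to 176, from an estimated 28 fragments in the unstimulated library). In Jmjd6-/- stroma it was at least 478 times higher, against the limit of 3 fragments in the library at 0. Such intervals and limits cover counting error only. In this unsorted stroma, fewer cells of a type and less RNA per cell cannot be told apart. The genotypes under RANKL differed by -0.16 on the log2 scale (Jmjd6-/- minus WT, FPKM with 0.1 added, SE 0.18, limma adjusted p = 0.719).

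Neurod1, the basic helix-loop-helix factor that acts beside INSM1 in islet and gut endocrine cells, stayed near 0. It was at 0.0996 and 0.0542 FPKM without RANKL, at 0.108 and 0.0519 FPKM in WT and at 0.0655 and 0.0438 FPKM in Jmjd6-/- stroma with RANKL. These values rest on an estimated 2 to 10 fragments a group, and a difference was not detectable at this depth. Neurod1 overlaps Cerkl on the same strand and Gm26755 on the other, so its few fragments cannot be assigned with certainty.

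Calca and Calcb lie near each other on chromosome 7 (114631478 to 114636357, minus strand, and 114718643 to 114723365, plus strand). Calca gives calcitonin or, by alternative splicing, the vasodilator calcitonin gene-related peptide (CGRP), and Calcb gives the beta form of CGRP. Calca was at 3.07 FPKM in WT and 1.86 FPKM in Jmjd6-/- stroma without RANKL, and with it at 28.2 and 42.6 FPKM in WT and 31.6 and 29.6 FPKM in Jmjd6-/- stroma. The 4 libraries with RANKL were above both without it, and the genotypes overlapped. The mean with RANKL was 11.5 times the unstimulated level in WT (counting interval 8.63 to 13.8) and 16.5 times in Jmjd6-/- stroma (11.2 to 26.2).

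Calcb was at 0.388 and 0.832 FPKM without RANKL, at 73.3 and 103 FPKM in WT and at 103 and 92.1 FPKM in Jmjd6-/- stroma with RANKL. It was the most abundant of the 10 genes under RANKL, and its genotypes overlapped as well. The rise was 227-fold in WT (counting interval 113 to 433) and 117-fold in Jmjd6-/- stroma (67.2 to 258), each from an estimated 10 fragments without RANKL. Calca and Calcb differed by -0.18 (SE 0.22, limma adjusted p = 0.727) and 0.16 (SE 0.19, adjusted p = 0.718) on the log2 scale between genotypes under RANKL.

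The balance of the pair turned over with RANKL. The ratio of Calcb to Calca was 0.126 in WT and 0.448 in Jmjd6-/- stroma without RANKL, where Calca was the higher. With RANKL the WT libraries gave 2.60 and 2.42 and the Jmjd6-/- libraries 3.27 and 3.11, where Calcb was the higher in every library. These genes are close copies, and fragments of one could be counted for the other. The longest run shared without mismatch by the transcripts Calca-201 and Calcb-203 was 61 bases, shorter than the 101-base reads, and 3.63% of the 30-base words of Calca-201 also occurred in Calcb-203. The run is shown because it is where reads could be confused. It holds the start of mature CGRP and lies wholly in the coding sequence of both, between positions 114632541 and 114634469 of chromosome 7 in Calca (across the junction of exons 3 and 4) and between 114721711 and 114722033 in Calcb (exons 4 and 5). Capitals mark the bases from exon 4 of Calca.
Shared run: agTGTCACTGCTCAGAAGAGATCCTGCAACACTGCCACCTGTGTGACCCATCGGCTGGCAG
The table gives 1 value per gene, so calcitonin and CGRP transcripts of Calca were not separated.

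Npy encodes neuropeptide Y, a transmitter of sympathetic nerves and of brain circuits for feeding (chromosome 6, 49822729 to 49829505, plus strand). Without RANKL, Npy was at 0.0877 FPKM in WT, an estimated 1 fragment, and at 0 in Jmjd6-/- stroma. After stimulation its level was 3.62 and 4.73 FPKM in WT and 2.10 and 2.47 FPKM in Jmjd6-/- stroma. Both genotypes were above their unstimulated library, by 47.6 times in WT (counting interval 8.79 to 2024) and at least 4.92 times in Jmjd6-/- stroma. Both WT values with RANKL lay above both Jmjd6-/- values, with a log2 difference of -0.83 (SE 0.26); no p is given because the gene was chosen for this contrast.

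**Figure D1:**
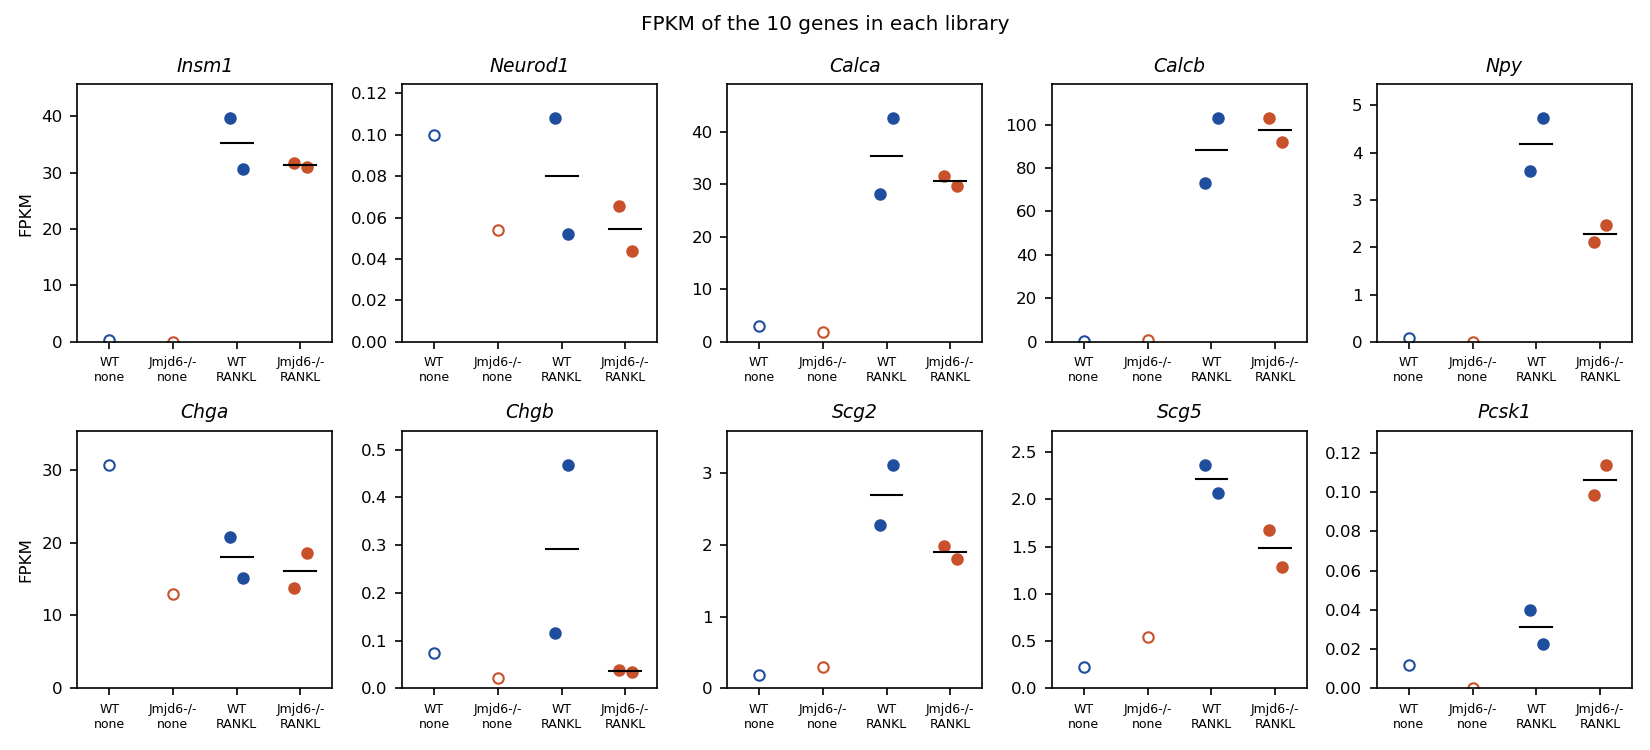
FPKM of the 10 genes in each library, each gene on its own linear axis from 0. Open points are unstimulated and filled points RANKL-stimulated libraries, WT in blue and Jmjd6-/- in orange, and lines are means of 2 libraries. Insm1, Calca, Calcb, Npy, Scg2 and Scg5 are high only in the filled points, while Chga is highest in unstimulated WT stroma at 30.7 FPKM.

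Among the granins, which are acidic proteins of the granule core, every RANKL library lay above both unstimulated ones for Scg2 and Scg5. This did not hold for Chga, or for Chgb, which was near 0 in most libraries. Scg2, the precursor of secretoneurin, was at 0.181 and 0.294 FPKM without RANKL, at 2.28 and 3.12 FPKM in WT and at 1.99 and 1.81 FPKM in Jmjd6-/- stroma with RANKL. The ratio to the unstimulated library was 14.9 in WT (counting interval 8.21 to 27.2) and 6.47 in Jmjd6-/- stroma (3.48 to 12.9). Both Jmjd6-/- values with RANKL lay below both WT values, but the difference of -0.47 (SE 0.26) did not pass the test (limma adjusted p = 0.420).

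Scg5 encodes 7B2, a chaperone of the convertase PC2. It was at 0.224 and 0.545 FPKM without RANKL, at 2.37 and 2.07 FPKM in WT and at 1.68 and 1.29 FPKM in Jmjd6-/- stroma with RANKL. Each genotype was higher with RANKL than without it, and both Jmjd6-/- values with RANKL lay below both WT values. The ratio to the unstimulated library was 9.89 in WT (counting interval 4.87 to 26.5) and 2.72 in Jmjd6-/- stroma (1.37 to 6.24), and the difference between genotypes under RANKL was -0.56 (SE 0.25, limma adjusted p = 0.325).

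Chga, chromogranin A, was present without stimulation. Without RANKL it was at 30.7 FPKM in WT and 13.0 FPKM in Jmjd6-/- stroma, and with it at 20.8 and 15.1 FPKM in WT and 13.8 and 18.5 FPKM in Jmjd6-/- stroma. In WT both libraries with RANKL were below the unstimulated one (ratio of the mean 0.585, counting interval 0.568 to 0.656), and in Jmjd6-/- stroma both were above it (1.24, interval 1.08 to 1.37). The genotypes overlapped under RANKL, with a difference of -0.15 (SE 0.22, limma adjusted p = 0.773).

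Of 3 parathyroid markers, 1 varied in a similar order. Pth, the parathyroid hormone gene, was at 58.8 FPKM in WT and 12.2 FPKM in Jmjd6-/- stroma without RANKL, at 33.8 and 27.9 FPKM in WT and at 17.9 and 20.3 FPKM in Jmjd6-/- stroma with RANKL. The summed level of Pth, Gcm2 and Casr, almost all of it Pth, was 59.6 and 12.5 FPKM in the unstimulated libraries and between 18.8 and 35.5 FPKM with RANKL. Gcm2, the parathyroid master factor, was between 0.0850 and 0.502 FPKM, highest in unstimulated WT and lowest in WT RANKL library 2. Casr, the calcium-sensing receptor gene, did not follow this order, at 0.287 and 0.172 FPKM without RANKL and between 0.778 and 1.29 FPKM with it. For both Chga and Pth, unstimulated WT was the highest library and unstimulated Jmjd6-/- the lowest. The part of parathyroid cells in the level of Chga was not tested. Thyroid follicular markers were near 0, with Tg, the thyroglobulin gene, below 0.1 FPKM in each library.

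**Figure D2:**
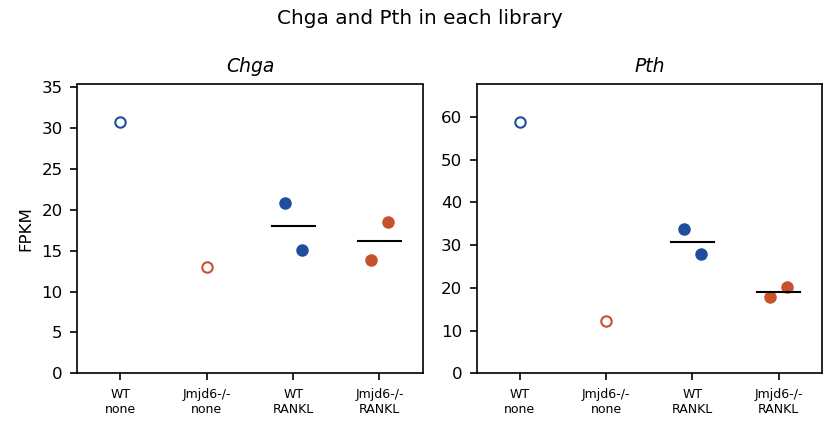
FPKM of Chga and of the parathyroid marker Pth in each library, on linear axes from 0, with lines for means of 2 libraries. Both genes are highest in unstimulated WT stroma (30.7 and 58.8 FPKM) and lowest in unstimulated Jmjd6-/- stroma (13.0 and 12.2 FPKM).

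Chgb, chromogranin B, was near 0 apart from 1 library. It was at 0.0737 and 0.0217 FPKM without RANKL, at 0.116 and 0.469 FPKM in WT and at 0.0378 and 0.0349 FPKM in Jmjd6-/- stroma with RANKL. The WT libraries with RANKL lay farther apart than the lower of them lay from the Jmjd6-/- values, and they rest on an estimated 27 fragments together, against 4 for Jmjd6-/- stroma. The ratio to the unstimulated library was 3.97 in WT (counting interval 1.26 to 9.23) and 1.67 in Jmjd6-/- stroma (0.136 to 67.6). Under RANKL the difference between genotypes was -1.36 (SE 0.54, limma adjusted p = 0.261).

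Pcsk1, the convertase PC1/3 that makes the first cuts in many prohormones, was also near 0. Without RANKL it was at 0.0119 FPKM in WT and at 0 in Jmjd6-/- stroma; it was at 0.0400 and 0.0224 FPKM in WT and at 0.0986 and 0.114 FPKM in Jmjd6-/- stroma with RANKL. Pcsk1 was the single gene of the 10 with both Jmjd6-/- RANKL values above both WT values. These levels rest on an estimated 7 fragments in WT and 23 in Jmjd6-/- stroma, and the gene was below the filter, so no difference was tested.

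Under RANKL the mean levels over 4 libraries ran from Calcb (93.0 ± 14.1 FPKM, SD, n = 4) through Insm1 (33.3 ± 4.28), Calca (33.0 ± 6.54) and Chga (17.0 ± 3.18) to Npy (3.23 ± 1.19), Scg2 (2.30 ± 0.577) and Scg5 (1.85 ± 0.468), with Chgb, Pcsk1 and Neurod1 below 0.2 FPKM. The ranges of Insm1 and Calca overlapped in this order, as did those of Npy with Scg2 and of Scg2 with Scg5. Library by library, Npy was above Scg2 in each of the 4, while the order within the other pairs changed between libraries. These orders were not tested. In 7 of the 10 genes the 4 libraries with RANKL all lay above both without it: Insm1, Calca, Calcb, Npy, Scg2, Scg5 and, at a few fragments, Pcsk1. The same held for 18.9% of the 15894 genes that passed the filter. The 10 genes had a median change of 2.44 on the log2 scale, also with the 3 genes whose unstimulated Jmjd6-/- library was at 0 set to their lower bound, against -0.02 over all 15894 genes. Nothing is read from these counts, since the choice of the genes used this contrast.

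**Figure D3:**
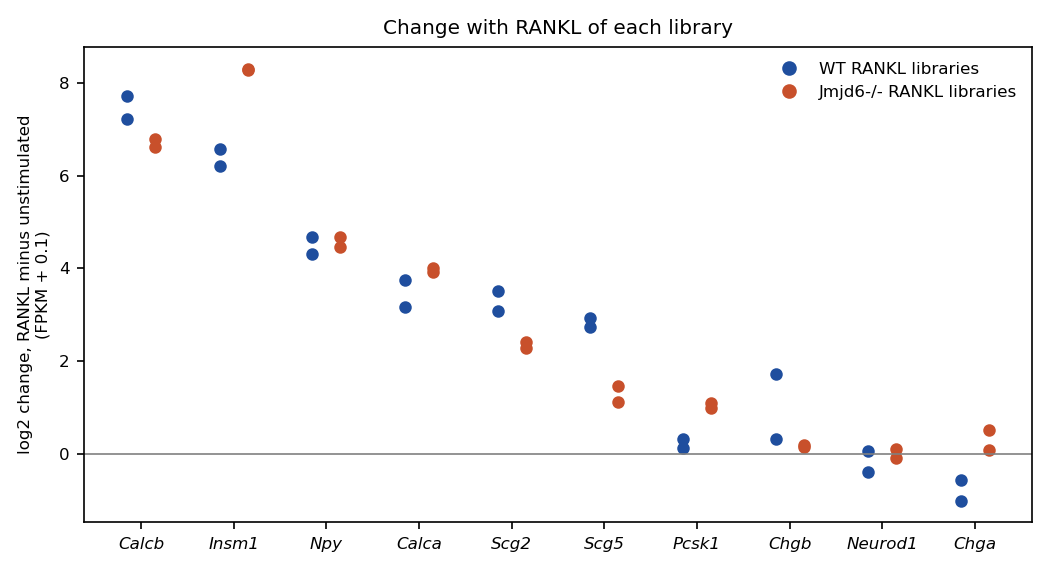
Change of each RANKL library from the unstimulated library of its genotype, as log2 of FPKM with 0.1 added, for the 10 genes (WT blue, Jmjd6-/- orange, 2 points each). Calcb, Insm1, Npy, Calca, Scg2 and Scg5 lie above 1 in every library, while Neurod1 lies around 0 and Chga lies below 0 in WT only. The Jmjd6-/- points of Insm1, Npy and Pcsk1 start from a library at 0 and depend on the added constant.

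Between genotypes under RANKL, 0 of the 7 genes tested passed an adjusted p under 0.05 by limma. At that adjusted threshold 1.82% of all 15894 genes were lower, and 0.516% higher, without Jmjd6. Unadjusted, 1 of the 7, Chgb, was under 0.05. The share of all genes at that level is not given, so nothing is read from this count. Both Jmjd6-/- values were below both WT values in 4 of the 10 genes (Chgb, Scg2, Scg5 and Npy), against 26.2% of all genes tested. They were above them in 1 of 10, Pcsk1, against 24.5%, and the other 5 overlapped. Npy was chosen for this contrast, and Pcsk1 and Neurod1 were below the filter that all genes tested had passed. Nothing is therefore read from these counts. Without WT RANKL library 1 the differences were -0.48 for Calca and -2.06 for Chgb. Without WT RANKL library 2 they were 0.12 for Calca and -0.66 for Chgb. Chgb passed the filter only through WT RANKL library 2, at 0.469 FPKM, so its differences lean on the library that brought it in. A genotype difference in the response to RANKL was tested in the same fit and passed for 0 of 15894 genes, with a lowest adjusted p of 0.702 and 664 genes under 0.05 unadjusted. The fitted response of Scg5 differed by -1.55 (Jmjd6-/- minus WT, SE 0.44, limma adjusted p = 0.935), from 1 unstimulated library per genotype. No difference in response is given for Insm1, Npy and Pcsk1, because their unstimulated Jmjd6-/- library was at 0 and its size would depend on the added constant.

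Beyond the 10 genes, 5 lists of 102 neuroendocrine pathway genes with an entry were read, of which 75 passed the filter. With RANKL, 18 of the 75 rose and 3 fell by limma at an adjusted p under 0.05, against 10.5% and 4.11% of all genes tested. Their median change was 0.91 on the log2 scale. The lists were chosen with earlier results of these data known. Some of their genes, such as Vgf and Adcyap1 at 0 without RANKL, passed the filter only through libraries where they were high. Nothing is therefore read from the shares of the 75 in either contrast. Between genotypes under RANKL, Jmjd6-/- stroma had 5 of the 75 at a lower level and 0 at a higher one by the same test, against 1.82% and 0.516% of all genes. The median difference was -0.50, against 0.01 over all genes. Each of these 5 calls was lost when WT RANKL library 2 was left out, at adjusted p from 0.0517 to 0.0557, and when Jmjd6-/- RANKL library 2 was, at adjusted p from 0.0737 to 0.394. Without Jmjd6-/- RANKL library 1 those of Grp, Iapp and Pnmt were lost (0.0520, 0.286 and 0.0544). Their directions held in each case.

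Of the 18 transcription factor genes, 6 passed the filter, with a median change of -0.16 with RANKL and a median genotype difference of 0.19 on the log2 scale. The islet factors Pax4, Nkx2-2 and Rfx6 were below 0.2 FPKM in the libraries with RANKL. Isl1, a factor of islet and sensory cells, was at 40.3 and 40.3 FPKM in WT and 43.8 and 40.9 FPKM in Jmjd6-/- stroma with RANKL, with a RANKL change of -0.07 (limma adjusted p = 0.614).

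Of 30 granule genes beside the 10, 25 passed the filter, 6 rose and 0 fell with RANKL, and 0 differed between genotypes; their median change with RANKL was 0.34. Cadps, a priming factor for granule release, was at 0.107 and 0.111 FPKM without RANKL, at 3.54 and 3.42 FPKM in WT and at 2.71 and 2.24 FPKM in Jmjd6-/- stroma with it (log2 change 3.86, SE 0.22, limma adjusted p = 1.19e-04). Vgf, a granin-like peptide precursor, was at 0 in both unstimulated libraries, at 0.828 and 1.39 FPKM in WT and at 0.468 and 0.457 FPKM in Jmjd6-/- stroma with RANKL (adjusted p = 0.00282). Sv2b, a vesicle glycoprotein gene, rose by 2.59 (SE 0.24, adjusted p = 9.09e-04); under RANKL it was at 6.98 and 5.10 FPKM in WT and 2.24 and 1.73 FPKM in Jmjd6-/- stroma. Syt7, Pcsk2 and Slc18a1 completed the genes that rose. Vgf, Syt7 and Pcsk2 were below 0.1 FPKM in both unstimulated libraries and passed the filter only through the RANKL libraries. Nothing is therefore read from their calls. Broadly expressed parts of the secretory route, such as Cpe (-0.43, adjusted p = 0.129) and Pam (-0.18, adjusted p = 0.387), did not pass the test.

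Peptide hormone genes beside the 10 numbered 29, and 26 passed the filter. Of these, 8 rose (Iapp, Nts, Tac1, Adcyap1, Gcg, Nmb, Pomc and Adm) and 2 fell (Grp and Penk) with RANKL. Iapp encodes the islet hormone amylin, a relative of CGRP. It was at 0 and 0.241 FPKM without RANKL, at 18.5 and 20.4 FPKM in WT and at 8.67 and 8.07 FPKM in Jmjd6-/- stroma with RANKL, a rise of 6.12 (SE 0.59, limma adjusted p = 0.00118), whose size depends on the added constant because of the library at 0, and a difference between genotypes of -1.21 (SE 0.18, adjusted p = 0.0429). Nts, neurotensin, rose by 3.48 (SE 0.30, adjusted p = 7.38e-04) and Tac1, the substance P precursor, by 2.25 (SE 0.36, adjusted p = 0.00859). Tac1, Adcyap1 and Gcg were below 0.1 FPKM in both unstimulated libraries, and Nts was at 0.139 and 0.0524 FPKM there. These genes passed the filter only through the RANKL libraries, so nothing is read from their calls with RANKL.

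Grp, gastrin-releasing peptide, went the other way from an abundant start. It was at 59.2 and 32.6 FPKM without RANKL, at 35.9 and 46.2 FPKM in WT and at 18.4 and 15.5 FPKM in Jmjd6-/- stroma with RANKL. Grp fell by 0.74 with RANKL (limma adjusted p = 0.0210) and was lower in Jmjd6-/- stroma under RANKL by -1.26 (SE 0.17, adjusted p = 0.0350). Penk, the enkephalin precursor, was at 38.2 and 46.6 FPKM without RANKL and between 22.8 and 29.2 FPKM with it, and its genotypes overlapped. The falls of Grp and Penk were lost in a fit without the mean-variance trend (limma adjusted p of 0.0592 and 0.0561) and without Jmjd6-/- RANKL library 1 (0.0618 and 0.0650).

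In 21 of the 26 peptide genes that passed the filter, both Jmjd6-/- RANKL values lay below both WT values, beside the 26.2% given above. Their median genotype difference was -1.47. Some of the 26 genes, such as Ins2 at 0 in every other library, passed through the WT RANKL libraries alone. For such genes the filter favoured this order, so nothing is read from the count. Only 2 of the 26, Iapp and Grp, passed the test. Most of the others were low and uneven between the WT libraries. Sst, somatostatin, was at 2.86 and 6.85 FPKM in WT and 0.560 and 0.153 FPKM in Jmjd6-/- stroma (log2 difference -3.47, adjusted p = 0.0583), and Gal, galanin, was at 3.87 and 9.46 FPKM in WT and 1.13 and 0.554 FPKM in Jmjd6-/- stroma (adjusted p = 0.0633). Sst and Gal are named with their values known. In 22 of the 26 genes WT RANKL library 2 was above WT RANKL library 1, which held for 46.5% of all genes tested, and the part of that library in the differences was not tested. The study had picked several of these genes, Ins2, Sst, Ppy, Sct, Pdyn and Crh among them, as lower in Jmjd6-/- stroma from the same libraries, so their direction is not independent evidence. Calca and Calcb had genotype differences of -0.18 and 0.16. Values near 0 also occurred in this list, as for Adm (-0.10), Penk (0.06) and Gast (0.05). No contrast between the pair and the list median is drawn, because of the filter and the study's choice of genes.

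**Figure D4:**
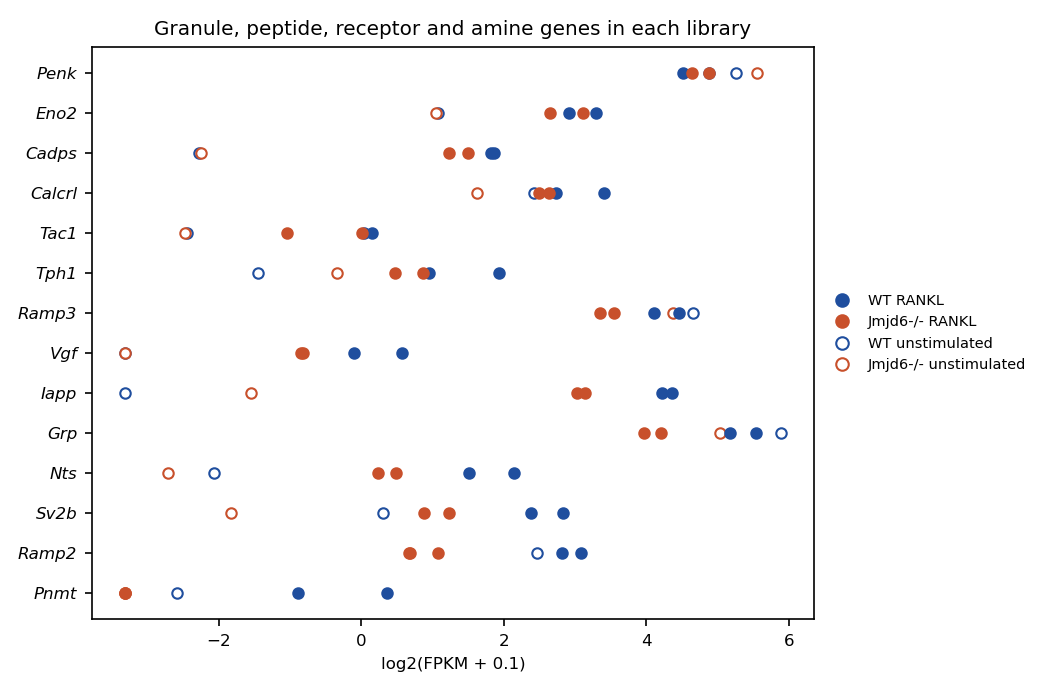
Levels of the named granule, peptide, receptor and amine genes in each library as log2 of FPKM with 0.1 added, sorted by the genotype difference under RANKL. Filled points are RANKL-stimulated and open points unstimulated libraries, WT in blue and Jmjd6-/- in orange; Iapp, Grp, Ramp2 and Pnmt have both orange filled points left of both blue ones.

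CGRP and its relatives signal through the receptor encoded by Calcrl together with RAMP proteins. All 10 receptor genes listed for the peptides of the 10 genes had an entry, and 6 passed the filter. With RANKL, Calcrl rose by 0.79 (SE 0.20, limma adjusted p = 0.0464) and Ramp3 fell by 0.64 (adjusted p = 0.0443), both near the threshold and both lost without either Jmjd6-/- RANKL library. Ramp2, the partner that turns the receptor towards adrenomedullin, was at 5.43 and 1.51 FPKM without RANKL, at 6.91 and 8.35 FPKM in WT and at 2.01 and 1.49 FPKM in Jmjd6-/- stroma with RANKL. It was lower in Jmjd6-/- stroma under RANKL by -2.07 (SE 0.22, adjusted p = 0.0280). Ramp2 and Calcrl are also genes of vessels, and the summed level of the 4 endothelial markers Pecam1, Cdh5, Kdr and Tek was 20.4 and 6.71 FPKM without RANKL, 9.67 and 10.7 FPKM in WT and 3.56 and 3.13 FPKM in Jmjd6-/- stroma with RANKL. Of these, Pecam1 and Cdh5 were lower in Jmjd6-/- stroma at an adjusted p under 0.05, and the part of endothelial cells in the level of Ramp2 was not tested. The neuropeptide Y receptor genes were at or below 0.4 FPKM in the libraries with RANKL.

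Of 15 genes for amine synthesis and neuronal cytoplasm, 12 passed the filter and 2 rose with RANKL. Tph1, the enzyme of serotonin synthesis outside the brain, rose by 1.95 (SE 0.48, limma adjusted p = 0.0390), a call that was lost without either Jmjd6-/- RANKL library. Eno2, neuron-specific enolase, was at 2.01 and 1.97 FPKM without RANKL, at 7.45 and 9.66 FPKM in WT and at 8.57 and 6.19 FPKM in Jmjd6-/- stroma with RANKL (log2 change 1.93, SE 0.19, adjusted p = 0.00116). Pnmt, the enzyme that makes adrenaline, was at 0.442 and 1.18 FPKM in WT and listed at 0 in both Jmjd6-/- libraries with RANKL (adjusted p = 0.0498). The study had picked Pnmt from these libraries, and its call was also lost with an added constant of 1 (adjusted p = 0.111). Pnmt was at 0.0669 and 0 FPKM without RANKL and passed the filter only through the WT RANKL libraries. The filter thus favoured this direction, and nothing is read from its call.

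Sympathetic neurons and glia could also carry Npy, Chga and Scg2. Phox2a, a defining factor of these neurons, was below 0.1 FPKM in the 6 libraries. Of 8 sympathetic markers, 4 passed the filter and 2 rose with RANKL, and their summed level, carried mainly by Stmn2, was 17.2 and 49.5 FPKM without RANKL, 24.9 and 27.0 FPKM in WT and 70.1 and 66.9 FPKM in Jmjd6-/- stroma with RANKL. Stmn2 had both Jmjd6-/- values with RANKL (67.5 and 64.3 FPKM) above both WT values (19.5 and 20.4 FPKM), while the other 3 that passed, Prph, Gap43 and Hand2, had them below, and the median genotype difference of the 4 was -0.90. Prph, the gene of a peripheral nerve filament, rose with RANKL, from 0.167 and 0.0556 FPKM to 1.41 and 2.50 FPKM in WT and 0.413 and 0.397 FPKM in Jmjd6-/- stroma (limma adjusted p = 0.00905). The part of nerve cells in the level of Npy was not tested. Summed glial markers lay between 8.66 and 11.3 FPKM in the 6 libraries. Of the mature mTEC markers, 5 of 5 that had an entry rose with RANKL, and their sum went from 15.9 and 14.7 FPKM to between 140.3 and 169 FPKM. In the other marker lists, by the same test, 1 of 7 thymic epithelial genes rose and 1 fell with RANKL, as 1 of 6 tuft cell, 1 of 6 glial, 1 of 5 mesenchymal and 1 of 3 parathyroid genes rose, and 2 of 4 haematopoietic and 3 of 4 endothelial genes fell; between genotypes 1 of 5 mesenchymal genes was lower in Jmjd6-/- stroma.

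Across the 6 libraries, the genes whose pattern was most like that of Insm1 were S100a8, Nkx2-6, Cdx1, Cyp26a1 and Tnfrsf11b, among the 12580 genes whose mean reached 1 FPKM. Likeness was the Euclidean distance between centred log2 values, and it was 1.29, 1.49, 1.66, 1.88 and 2.11. S100a8, a calcium-binding protein of neutrophils, went from 0.586 and 0.268 FPKM to between 58.5 and 141 FPKM with RANKL. Nkx2-6, a homeobox gene of the pharynx, was at 0.0593 and 0 FPKM without RANKL and at 10.9, 10.3, 10.4 and 10.7 FPKM with it. Cdx1, an intestinal homeobox gene, was at 23.5 and 28.5 FPKM in WT and 14.0 and 12.2 FPKM in Jmjd6-/- stroma with RANKL. Tnfrsf11b encodes osteoprotegerin, the decoy receptor of RANKL. Among the 10 genes, Calcb was nearest to Insm1 (2.24), then Npy (3.46) and Calca (4.36), and Chga was the farthest (8.80). These distances are a description over 6 libraries that share the split by RANKL. They depend on the added constant, since genes such as Insm1, Npy and Nkx2-6 were at 0 in unstimulated Jmjd6-/- stroma.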

How the data were processed

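The authors deposited FPKM per gene for 6 libraries, made from paired-end poly-A reads (101 bases) with TopHat2 2.0.10 and Cufflinks 2.1.1 on mm10 with multi-read correction and a stranded library type, although no strand-keeping step of the kit is described. These values were used as deposited. Groups came from the sample labels, and no column of per-sample values was left unused. The 10 genes, the 5 pathway lists and the 10 marker lists were chosen with earlier results of these data known.

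Log2 values of FPKM with 0.1 added were fitted with limma 3.58.1 (R 4.3.3, mean-variance trend, Benjamini-Hochberg adjustment over all genes) in the 15894 genes whose mean reached 0.1 FPKM. The change with RANKL was fitted with genotype as a term, and the genotypes under RANKL and the difference in response in a model of 4 group means. P-values measure only the spread between these libraries, and an exact permutation test of 2 against 2 cannot go below 0.333. The fits were tested on simulated data.

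Depth was estimated from steps between FPKM values below 0.15, with transcript length less 150 bases, and gives the fragment counts and 95% Poisson intervals. A value at 0 was taken to allow 3 fragments in that library. The spans given for whole genes came from the deposited values, on mm10. Strands, exons, transcripts and overlaps came from GENCODE vM21 on GRCm38, the same build as mm10.

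Named were the 10 genes; from each pathway list up to 3 rises, up to 3 falls and up to 4 genotype differences at an adjusted p under 0.05; and the 5 genes most like Insm1. Other list genes in the report were named with their values known. Alternatives were other added constants, filters and scalings, a fit without the trend, each RANKL library left out, the replicate number as a term, and a fit of the RANKL libraries alone. Some genes of the lists are counted but not reported singly here.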

Additional observations from a re-analysis of the deposited data

Results flagged for a closer look

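The values of Chga with RANKL lay on opposite sides of the unstimulated library in the 2 genotypes. Both WT libraries with RANKL were below the unstimulated WT library, and both Jmjd6-/- libraries were above the unstimulated Jmjd6-/- library. The difference in response was 1.08 on the log2 scale (SE 0.38, limma adjusted p = 1.000), which did not pass the threshold. It rests on 1 unstimulated library per genotype, which held 58.8 and 12.2 FPKM of the parathyroid hormone gene Pth.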

How the results depend on the processing

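In the model of group means, 6 libraries in 4 groups left 2 residual degrees of freedom, and 1 when a library was left out, where the lone library of a group was assumed to vary like the other groups. Counts of calls moved widely between the alternatives, while most single values kept their direction. Values of the genes near 0 (Neurod1, Chgb, Pcsk1) are limited by their few fragments.

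The median change of the 10 genes with RANKL was 2.44 on the log2 scale, 1.22 with an added constant of 1 and 2.78 with 0.01. No scaling moved the median of all genes by more than 0.04. With no filter, RANKL calls numbered 788 higher and 299 lower, and genotype calls 1 higher and 1 lower; 93 genes then had a stronger and 83 a weaker response in Jmjd6-/- stroma, and pathway calls numbered 8 higher and 0 lower with RANKL and 0 lower in Jmjd6-/- stroma. Without the trend, 398 genes and 0 pathway genes were lower with RANKL. Genes lower in Jmjd6-/- stroma numbered 180 with a constant of 0.01 and 172 with a filter at 1 FPKM.

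Same-numbered RANKL libraries deviated with a correlation of -0.08 over 12587 genes, and the labels give no pairing beyond the number. A shared preparation that touched part of the genes was not tested. With the replicate block, genotype calls numbered 382 higher and 1077 lower, pathway calls 2 higher and 24 lower, and response calls 27 stronger and 67 weaker, and the 7 genes tested gave 0 calls.

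Leaving out 1 RANKL library at a time, RANKL calls ran from 979 to 2165 higher and from 153 to 1478 lower. Genotype calls ran from 20 to 2254 higher, with the largest count without WT RANKL library 1, and from 68 to 1737 lower. Response calls ran from 0 to 4 stronger and 0 to 1 weaker. Pathway calls ran from 0 to 5 lower with RANKL, and from 0 to 19 lower and 0 to 3 higher in Jmjd6-/- stroma. Of the 7 genes tested, 0 to 2 were lower in Jmjd6-/- stroma. The difference between genotypes ran from -0.34 to 0.03 for Insm1, from -0.48 to 0.12 for Calca, from -0.08 to 0.41 for Calcb and from -0.38 to 0.08 for Chga, so these signs rest on single libraries. The causes were not tested. Cadps, Sv2b, Iapp, Nts and Eno2 kept their RANKL calls in every alternative run. Vgf kept its call wherever it was tested, as it fell below the filter at 1 FPKM. Vgf and Nts had passed the main filter only through the RANKL libraries, so nothing is read from this for them. Single-gene values under the alternatives numbered 250 with direction and call kept, 51 that lost the call, 2 that gained it and 5 that changed sign.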
